A study of Homo sapiens with 3 samples.

Results

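The EGF receptor family comprises the receptor tyrosine kinases EGFR, ERBB2, ERBB3 and ERBB4, which signal as pairs, and its ligands are made as membrane-anchored precursors that proteases cut free. EGFR binds amphiregulin (AREG), epiregulin (EREG), heparin-binding EGF-like growth factor (HBEGF), transforming growth factor alpha (TGFA) and betacellulin (BTC), whereas neuregulin 1 (NRG1) binds ERBB3 and ERBB4. In the liver, EGFR ligands act on hepatocytes and on stellate cells, the matrix-producing cells that give rise to fibroblasts in metastases. The 10 genes were taken by symbol from the deposited expression table, and 9 of them were found among its 24254 symbols. ERBB4 was not analysed here.

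Cultures of LX-2, an established human hepatic stellate cell line, received vehicle or recombinant human FGF19 (rhFGF19) at 50 or 100 ng/mL, and the mRNA of 1 culture per condition was sequenced. No genetic change was described for any of the groups. The study text gives 24 h of stimulation, whereas the sample descriptions give 72 h and 73 h and exchange both doses between the rhFGF19 samples. The doses used here follow the titles and the agent field. Values were FPKM, fragment numbers scaled to transcript length and to the mapped fragments of a library, given with 2 decimals. With 1 library per condition there was no replicate, no error and no test for any difference, and both rhFGF19 comparisons share the vehicle library. Read numbers cannot be had from FPKM, and the sequencing depth is therefore unknown.

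The libraries themselves differed along a property of the transcripts. Over the 12422 symbols that averaged 0.5 FPKM or more, genes with GC-rich transcripts had smaller fold changes against vehicle (Spearman correlation across genes, which are not independent replicates, -0.77 at both doses), and the median log2 fold change was 0.62 at each dose. Between the rhFGF19 libraries the correlation was 0.068. Because the vehicle library is the only one without rhFGF19, a GC-dependent difference of that library and an effect of rhFGF19 cannot be told apart, and the trend is printed beside each member. Of 15 stellate cell and myofibroblast markers, 11 had at least 1 FPKM in every library, among them VIM at 439 FPKM and COL1A1 at 78.4 FPKM in vehicle, whereas COL1A2 had at most 0.14 FPKM, DES was listed at 0 in 2 of the libraries and LRAT at 0 in all of them. The summed level of the 15 markers was 1119, 1172 and 1180 FPKM in vehicle, 50 and 100 ng/mL. Within that sum single markers differed in both directions. VIM had 439, 654 and 649 FPKM and COL1A1 78.4, 108 and 104 FPKM, whereas TAGLN had 223, 118 and 126 FPKM and TIMP1 308, 184 and 193 FPKM. The 7 listed epithelial markers summed to 504 FPKM in vehicle, 309 at the lower dose and 303 at the higher dose, nearly all from KRT8 and KRT18, while CDH1 had at most 0.01 FPKM. The 6 basal epithelial markers summed to 79.8, 71.4 and 69.3 FPKM, the 8 hepatocyte markers to 11.4, 12.6 and 11.5, the 4 listed blood cell markers to 52.0, 47.0 and 42.4, and the 5 endothelial markers to 0.74, 1.04 and 1.06. Most of the blood cell sum was CD68, at 47.5, 44.2 and 39.8 FPKM. The part of these differences in the results for the family was not tested. In such bulk samples, fewer expressing cells and less mRNA per cell cannot be told apart.

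ERBB2, EGFR and HBEGF were the abundant members, and their differences from vehicle were unlike. EGFR was more than 2-fold higher in both rhFGF19 libraries, HBEGF just under 2-fold higher as deposited and ERBB2 close to its vehicle level. NRG1 and AREG were higher at low levels. ERBB3, EREG, TGFA and BTC were at or below 0.15 FPKM in every library. Of the 9 members, 4 passed the filter of a mean of at least 0.5 FPKM (EGFR, ERBB2, HBEGF and NRG1) and 5 did not. AREG missed it narrowly, with a mean of 0.497 FPKM. NRG1 had 0.31 FPKM in vehicle and passed through its rhFGF19 libraries.

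**Figure D1:**
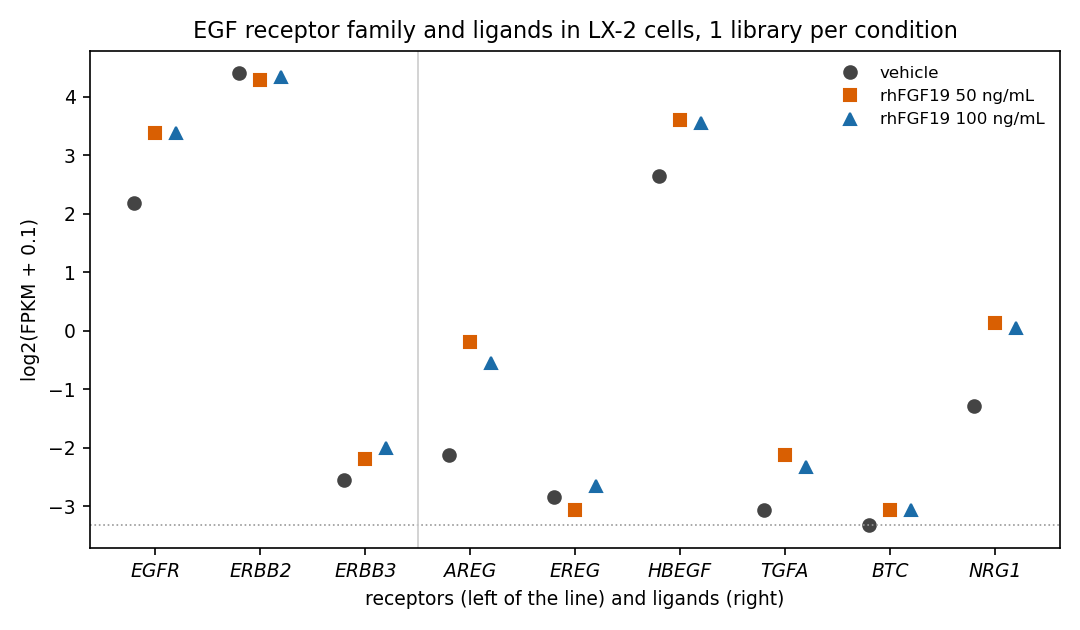
Levels of the 9 members in each library, as log2(FPKM + 0.1), with receptors left and ligands right of the grey line and the dotted line at 0 FPKM. Each point is 1 library without replicate; ERBB2 is highest in all 3 libraries, while EGFR, HBEGF, AREG and NRG1 lie higher in both rhFGF19 libraries than in vehicle.

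Promoter sequences are shown for AREG, EGFR and HBEGF, each higher in both rhFGF19 libraries than in vehicle, so that their letters can be read beside the values that follow. NRG1, also higher in both, had no matched promoter entry. RefSeq entries (GRCh38.p14) were matched for 7 of the 9 members, and the bases shown run 5′ to 3′ from 250 bases upstream of the RefSeq start to the last base before the first exon in GENCODE v29. Capitals mark the cyclic AMP response element TGACGTCA, the TATA box TATAAA, the AP-1 site TGANTCA and the GC box GGGCGG, searched on both strands. Matching GC boxes can overlap each other, as at the end of the HBEGF stretch. The AREG stretch is chr4:74444886-74445133 on the plus strand, the EGFR stretch chr7:55018767-55019016 on the plus strand and the HBEGF stretch chr5:140346632-140346853 on the minus strand.
AREG: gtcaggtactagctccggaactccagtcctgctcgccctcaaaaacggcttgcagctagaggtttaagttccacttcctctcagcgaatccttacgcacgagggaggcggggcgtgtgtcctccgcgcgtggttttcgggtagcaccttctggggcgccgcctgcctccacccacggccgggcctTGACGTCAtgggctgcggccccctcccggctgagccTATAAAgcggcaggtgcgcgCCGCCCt
EGFR: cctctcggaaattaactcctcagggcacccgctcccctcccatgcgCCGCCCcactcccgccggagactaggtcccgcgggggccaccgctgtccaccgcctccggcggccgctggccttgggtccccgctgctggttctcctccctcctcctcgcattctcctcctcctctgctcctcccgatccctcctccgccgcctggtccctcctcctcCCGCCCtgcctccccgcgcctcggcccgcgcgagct
HBEGF: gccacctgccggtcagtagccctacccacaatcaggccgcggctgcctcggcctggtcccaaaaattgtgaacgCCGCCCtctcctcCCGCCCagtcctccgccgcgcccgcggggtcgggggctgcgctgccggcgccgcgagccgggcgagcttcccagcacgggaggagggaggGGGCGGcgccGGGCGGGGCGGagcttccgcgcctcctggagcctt

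The AREG stretch held 1 TGACGTCA, 1 TATAAA and 1 GC box. The HBEGF stretch held 5 GC boxes and the EGFR stretch 2, and neither held any of the other motifs. Over the 35116 RefSeq promoter entries, 1.65% had TGACGTCA in the 250 bases before the start, 10.7% had TATAAA, 6.57% had TGANTCA and 42.6% had GGGCGG. EREG, at 0.06 FPKM or less, also had 1 TATAAA in that stretch. A second RefSeq start of EGFR, inside the gene, had 2 TATAAA and 2 TGANTCA in its 250 bases. The RefSeq window of ERBB2 overlaps its first exon in GENCODE v29 and is not described further. The GC content of these 250 bases was 73.6% for the first start of EGFR, 76.4% for HBEGF and 65.2% for AREG. These matches describe letters.

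Among the receptors, EGFR (ENSG00000146648, chromosome 7 from 55019017 to 55211628, plus strand) binds most of the EGF-like ligands. It had 4.46 FPKM in vehicle, 10.31 FPKM at 50 ng/mL and 10.31 FPKM at 100 ng/mL. Both rhFGF19 libraries were thus equal to the second decimal and above vehicle. The log2 fold change on the log2(FPKM + 0.1) scale was 1.19 at each dose, a 2.28-fold higher level, where all tested genes had a median of 0.62. Of all tested genes, 68.2% had a smaller fold change at the lower dose and 69.5% at the higher dose. How far EGFR stood above genes of its GC content depended on the transcript taken. The 5 transcripts listed for EGFR have a median GC content of 54.1% and a median length of 665 bases, at which the loess trend of all genes was 0.21, leaving 0.98 at both doses. The longest transcript has 9821 bases and a GC content of 47.5%, at which the trend was 0.94 at the lower dose and 0.92 at the higher dose, leaving 0.25 and 0.27. EGFR was also under 2-fold with the median ratio of all genes set to 0 (0.96 and 0.97), after quantile normalization (0.67 and 0.69) and with the length trend removed (0.74 at both doses). The antisense gene EGFR-AS1, which lies within EGFR, was listed at no more than 0.01 FPKM.

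ERBB2 (ENSG00000141736, chromosome 17 from 39687914 to 39730426, plus strand) has no known ligand and serves as the partner of the other receptors. It had 21.0 FPKM in vehicle, 19.4 FPKM at 50 ng/mL and 20.3 FPKM at 100 ng/mL, the highest level of the family in each library. Its libraries lay close together, with log2 fold changes of -0.12 and -0.055 as deposited, whose sign turned to 0.0074 and 0.047 with values rescaled to a common sum (TPM). These were lower than the median of all genes, and 30.9% and 32.3% of tested genes had a smaller fold change. At the median GC content of its transcripts, 59.3%, the trend was -0.29 and -0.27, so that ERBB2 lay 0.17 and 0.22 above genes of similar GC content. With the length trend removed it lay at -0.82 and -0.74. ERBB2 shares its span with MIEN1 and PGAP3 on the opposite strand. MIEN1 had 53.6 FPKM in vehicle, 33.6 FPKM at 50 ng/mL and 35.5 FPKM at 100 ng/mL, and since no source used here states that counting used strand, reads of these neighbours and of ERBB2 may not have been separated.

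ERBB3 (ENSG00000065361, chromosome 12 from 56076799 to 56103505, plus strand), a neuregulin receptor with little kinase activity of its own, had 0.07 FPKM in vehicle, 0.12 FPKM at 50 ng/mL and 0.15 FPKM at 100 ng/mL. At such levels the second decimal matters, and rounding alone let its log2 fold change at 50 ng/mL lie between 0.30 and 0.45. Within each library, where library scaling cancels, EGFR had 0.21 times the FPKM of ERBB2 in vehicle, 0.53 times at the lower dose and 0.51 times at the higher dose. Of the FPKM summed over EGFR, ERBB2 and ERBB3, ERBB2 made up 82.3% in vehicle, 65.0% at the lower dose and 65.9% at the higher dose, and EGFR 17.4%, 34.6% and 33.6%. The log2 fold change of EGFR exceeded that of ERBB2 by 1.31 and 1.25 as deposited, by 0.81 and 0.77 with the GC trend of median transcripts removed, by 0.19 and 0.16 with that of the longest transcripts removed, and by 1.56 and 1.48 with the length trend removed. The difference by longest transcripts was smaller than the SD over all tested genes of the log2 difference between the rhFGF19 libraries, 0.32. That SD takes in no variation of the vehicle library and is not an error of this difference. The median absolute log2 difference between the rhFGF19 libraries was 0.089.

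Among the ligands, HBEGF (ENSG00000113070, chromosome 5 from 140332843 to 140346603, minus strand), which binds heparan sulfate and activates EGFR and ERBB4, was the only one of the 6 member ligands above 1 FPKM in vehicle. It had 6.17 FPKM in vehicle, 12.1 FPKM at 50 ng/mL and 11.6 FPKM at 100 ng/mL. Both rhFGF19 libraries were higher, by 0.96 and 0.90 on the log2 scale or 1.95-fold and 1.87-fold, and neither passed 2-fold as deposited. Rescaled to TPM, both did, at 1.10 and 1.01. At its transcript GC content of 50.9%, the trend was 0.65 and 0.63, which left 0.31 and 0.27. Its longest transcript has the same GC content, and the trend fitted by the longest transcripts of all genes left 0.41 and 0.36. HBEGF made up 92.5% of the FPKM summed over the 6 ligands in vehicle, 86.1% at the lower dose and 87.2% at the higher dose.

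NRG1 (ENSG00000157168, chromosome 8 from 31639222 to 32774046, plus strand), the ligand of ERBB3 and ERBB4, had 0.31 FPKM in vehicle, 1.0 FPKM at 50 ng/mL and 0.94 FPKM at 100 ng/mL, so that both rhFGF19 libraries lay above vehicle. The log2 fold changes, 1.42 and 1.34, exceeded those of the other members that passed the filter, and 79.7% and 76.4% of tested genes had a smaller one. With a pseudocount of 1 they were 0.61 and 0.57, under 2-fold. The receptor it binds with ERBB2 as partner, ERBB3, was at 0.15 FPKM or less. At the GC content of NRG1 transcripts, 45.6%, the trend was 1.21 and 1.19, leaving 0.21 and 0.15. The measured value therefore lay within 1 SD of the difference between the rhFGF19 libraries from the trend, an SD over all tested genes that is not an error of NRG1.

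AREG (ENSG00000109321, chromosome 4 from 74445136 to 74455005, plus strand), a low-affinity EGFR ligand induced in injured liver, had 0.13 FPKM in vehicle, 0.78 FPKM at 50 ng/mL and 0.58 FPKM at 100 ng/mL. On the log2 scale AREG was 1.94 and 1.56 higher (3.83-fold and 2.96-fold), more than any other of the 9 members, but it was not among the tested genes. Rounding to 2 decimals let the first lie between 1.90 and 1.98. The transcripts of AREG have a GC content of 40.9%, where the trend of the tested genes was 1.45 and 1.44. The rhFGF19 libraries differed by -0.37 on the log2 scale, with the lower value at 100 ng/mL.

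AREG lies in a row of EGF-family genes on chromosome 4 with EREG (ENSG00000124882, from 74365145 to 74388749) and BTC (ENSG00000174808, from 74744759 to 74794523), and these genes did not share its pattern. EREG, a ligand of EGFR and ERBB4, had 0.04 FPKM in vehicle, 0.02 FPKM at 50 ng/mL and 0.06 FPKM at 100 ng/mL. BTC, which binds the same receptors, was listed at 0 FPKM in vehicle and at 0.02 FPKM in both rhFGF19 libraries. On the log2(FPKM + 0.1) scale EREG differed from vehicle by -0.22 and 0.19 and BTC by 0.26 at both doses. For both genes the trend at their GC content of 36.1% and 40.2% was between 1.46 and 1.53, so their values lay below it, although the pseudocount of 0.1 exceeds their FPKM and holds their fold changes near 0. TGFA (ENSG00000163235, chromosome 2 from 70447284 to 70553826, minus strand), a further ligand of EGFR, had 0.02 FPKM in vehicle, 0.13 FPKM at 50 ng/mL and 0.10 FPKM at 100 ng/mL, log2 fold changes of 0.94 and 0.74.

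In every library the order of levels began with ERBB2, followed by HBEGF, EGFR, NRG1 and AREG. HBEGF and EGFR were 0.46 apart on the log2 scale in vehicle, and 0.23 and 0.17 apart at 50 and 100 ng/mL. With 1 library per condition no error could be given for such gaps. NRG1 and AREG were 0.83, 0.32 and 0.61 apart. The places of ERBB3, EREG, TGFA and BTC changed between libraries, at levels where 1 unit of the last decimal is a large part of the value. Between the rhFGF19 libraries the 4 members that passed the filter differed by at most 0.081 on the log2 scale, and none of the 9 passed 2-fold.

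Counted by the threshold of 2-fold, 2 of the 4 members that passed the filter (EGFR and NRG1) were higher than in vehicle at 50 ng/mL, where 39.5% of all tested genes were, and the same 2 were higher at 100 ng/mL, against 38.6%. None was lower, against 1.75% and 1.47% of all genes. Between 100 and 50 ng/mL none was past 2-fold in either direction, against 0.845% of genes higher and 0.797% lower. The counts of members are therefore read beside backgrounds in which many genes of all kinds were higher. NRG1 had under 0.5 FPKM in vehicle and passed the filter only through the rhFGF19 libraries. Among all tested genes, the same held for 1210 of the 4903 higher at 50 ng/mL and 1185 of the 4793 at 100 ng/mL. The median log2 fold change of the 4 members was 1.08 at the lower dose and 1.05 at the higher dose, beside 0.62 for all tested genes at both doses. With the GC trend removed these medians were 0.26 and 0.24, beside 0.0075 and 0.0043 for all genes, and no member was past 2-fold.

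**Figure D2:**
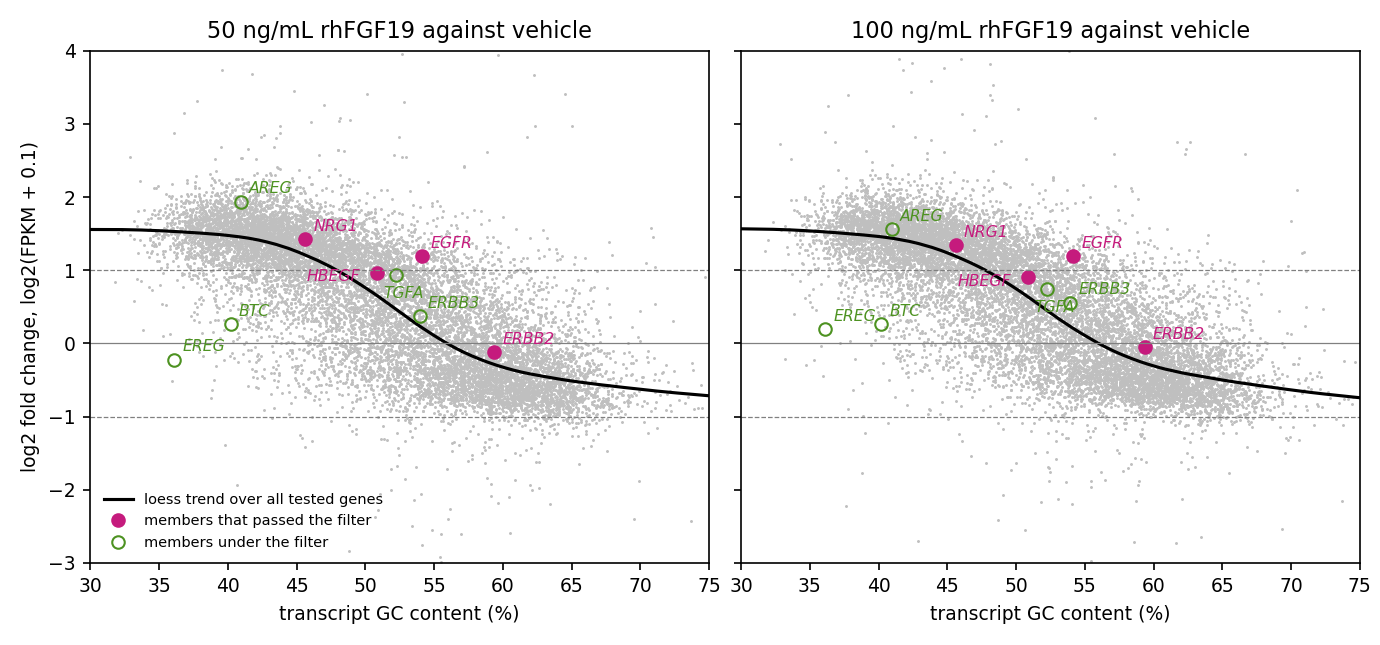
Log2 fold change of each tested gene against transcript GC content (grey points) at 50 ng/mL (left) and 100 ng/mL (right), with the loess trend in black, members that passed the filter filled and members under it open; dashed lines mark 2-fold, and 38 and 30 genes lie outside the axes. NRG1 and HBEGF lie 0.31 or less above the trend, EGFR 0.98 above it at the median GC content of its transcripts, and EREG and BTC below it.

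**Figure D3:**
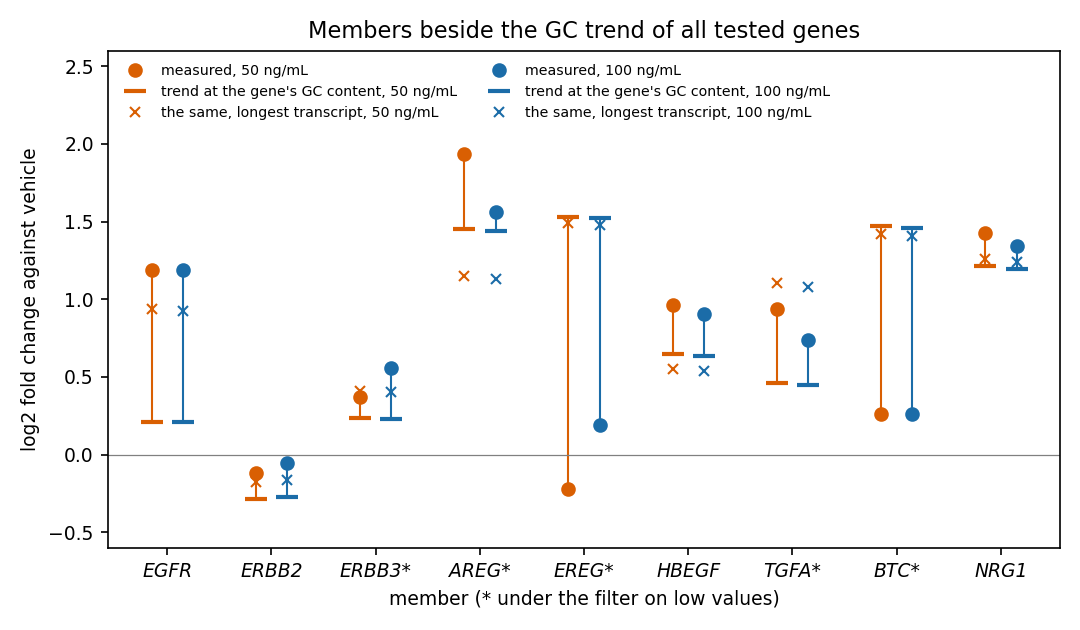
Measured log2 fold change of each member (points) beside the trend of all tested genes at its GC content, read at the median over its transcripts (bars) or at its longest transcript (crosses), for 50 and 100 ng/mL. For EGFR the trend is 0.21 by the first measure and 0.94 by the second at 50 ng/mL.

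The rest of the pathway was described from lists of its parts. Of 92 further genes, 80 passed the filter, and 41 of these were past 2-fold higher at the lower dose and 38 at the higher dose, with none lower. These are 51.3% and 47.5%, beside 39.5% and 38.6% of all tested genes, and 4 of the genes at each dose passed the filter only through the rhFGF19 libraries. Their median log2 fold changes were 1.0 and 0.94, beside 0.62 for all tested genes, and 0.16 and 0.15 with the GC trend removed. Then 5 genes at the lower dose and 4 at the higher dose were past 2-fold, which is 6.25% and 5.0%, beside 3.74% and 3.33% of all tested genes. With the GC trend of the longest transcripts removed instead, 4 and 1 of the 80 genes were past 2-fold higher.

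The other EGF-family ligands added little. NRG2, a neuregulin, was the only one of the 4 listed that passed the filter, with 1.33 FPKM in vehicle, 1.59 FPKM at 50 ng/mL and 1.45 FPKM at 100 ng/mL. EGF had at most 0.14 FPKM, EPGN 0.22 FPKM and NRG4 0.03 FPKM.

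Of the sheddases, which release the ligands, and the adaptors of ADAM17, 4 of the 10 that passed the filter were past 2-fold higher at each dose, a share (40.0%) close to that of all tested genes. ADAM10 had the highest fold change, from 0.86 FPKM in vehicle to 3.28 and 3.04 FPKM. ADAM17, the main protease for AREG, HBEGF and TGFA, had 0.34 FPKM in vehicle, 1.15 FPKM at 50 ng/mL and 1.20 FPKM at 100 ng/mL, log2 fold changes of 1.51 and 1.56. It passed the filter only through the rhFGF19 libraries, and with the GC trend removed its log2 fold changes were 0.075 and 0.15. ADAM15, the most abundant, lay lower at 57.5, 31.9 and 31.8 FPKM without reaching 2-fold. FRMD8, which stabilises the ADAM17 complex, had 41.8, 27.2 and 28.3 FPKM. ADAM10 transcripts have a GC content of 40.6% and those of ADAM15 62.5%, and with the trend removed their log2 fold changes at 50 ng/mL were 0.35 and -0.41. Then 1 of the 10 genes (10%) was past 2-fold higher at each dose, beside 3.74% and 3.33% of all tested genes.

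The list of inhibitors and ubiquitin ligases also holds USP8, which is neither. In this list 10 of 13 genes were past 2-fold higher at each dose, the largest share of these lists (76.9%, beside 39.5% and 38.6% of all tested genes), with median log2 fold changes of 1.41 and 1.47. Of these 10, USP8, LRIG2 and PTPN2 had under 0.5 FPKM in vehicle and passed the filter only through the rhFGF19 libraries. ERRFI1, the feedback inhibitor that binds the kinase domain of EGFR, had 1.61 FPKM in vehicle, 4.43 FPKM at 50 ng/mL and 4.65 FPKM at 100 ng/mL. CBL, the ubiquitin ligase of activated EGFR, had 2.27, 5.78 and 5.91 FPKM. USP8, which removes ubiquitin from the receptors, had the highest fold change of the list at 0.15, 0.98 and 0.80 FPKM. STUB1, the ubiquitin ligase that removes ERBB2 released by its chaperone, had the lowest at 78.8, 44.2 and 42.1 FPKM. PTPN1, a phosphatase of EGFR, had 8.98, 22.1 and 22.3 FPKM. The list had a median transcript GC content of 47.5%, below the 51.1% of all tested genes, and with the trend removed its medians were 0.27 and 0.32 with no gene past 2-fold. ERRFI1 had 0.36 times the FPKM of EGFR in vehicle, 0.43 times at the lower dose and 0.45 times at the higher dose.

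Among adaptors and signal transducers, 13 of 27 were past 2-fold higher at the lower dose and 12 at the higher dose (48.1% and 44.4%), near the 39.5% and 38.6% of all tested genes. The adaptor SHC1, the most abundant, had 112 FPKM in vehicle, 96.6 FPKM at 50 ng/mL and 93.3 FPKM at 100 ng/mL. AKT1 followed with 87.5, 52.9 and 53.6 FPKM. CRK had the highest fold change, with 3.04, 9.61 and 10.6 FPKM, and HRAS the lowest, with 72.0, 39.5 and 41.1 FPKM. The related NRAS had 3.12, 8.35 and 8.97 FPKM. After removal of the GC trend, HRAS had log2 fold changes of -0.36 and -0.32 and NRAS -0.11 and 0.0042. The medians of the list with that trend removed were -0.11 and 0.0042.

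In endocytosis and sorting, 9 of 14 genes (64.3%) were past 2-fold higher at each dose, beside 39.5% and 38.6% of all tested genes. EPS8, an EGFR substrate, had 0.69, 2.70 and 2.76 FPKM, and EPN1, a clathrin adaptor, 45.9, 24.5 and 23.9 FPKM, the 2 ends of the list. The clathrin adaptor subunits AP2M1 and AP2A1 were the most abundant with AP2M1 at 283, 240 and 233 FPKM. With the trend removed the medians were 0.060 and 0.027, with no gene past 2-fold. Of 15 early response genes that EGF signalling is known to switch on, 5 were past 2-fold higher at the lower dose and 3 at the higher dose (33.3% and 20%), below the shares of all tested genes. FOSL1, an AP-1 subunit, had 446 FPKM in vehicle, 344 FPKM at 50 ng/mL and 345 FPKM at 100 ng/mL. IER3 had 241, 208 and 215 FPKM. KLF6 had the highest fold change at 1.76, 5.41 and 4.94 FPKM, and ETV4 the lowest at 40.2, 22.4 and 23.4 FPKM. With the trend removed, 3 of the 15 (20%) were past 2-fold higher at each dose, above the 3.74% and 3.33% of all tested genes. These were KLF6, 1.29 and 1.17 above genes of similar GC content, SPRY4, a feedback inhibitor (1.19 and 1.09), and CCND1, cyclin D1 (1.39 and 1.40). This count rests on the median GC content of the transcripts. By the longest transcripts, 4 of all 80 pathway genes were past 2-fold higher at 50 ng/mL and 1 at 100 ng/mL. No more than 1 of these 3 genes can thus have remained at 100 ng/mL. SPRY4 and CCND1 were named after their values were seen.

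**Figure D4:**
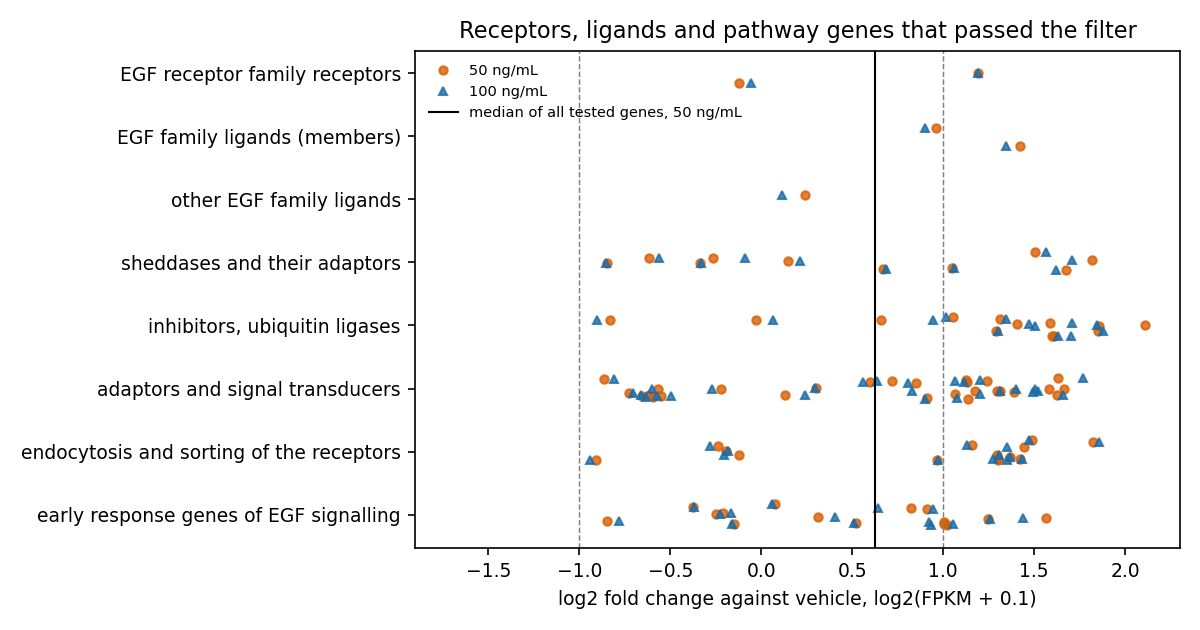
Log2 fold change against vehicle of each gene that passed the filter, by list, at 50 ng/mL (circles) and 100 ng/mL (triangles), with the median of all tested genes at 50 ng/mL as a solid line and 2-fold as dashed lines; the vertical scatter within a list carries no value. No gene lies past 2-fold lower in any of these lists, and 10 of 13 genes in the list of inhibitors and ubiquitin ligases, USP8 among them, lie past 2-fold higher at each dose.

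The deposited table also carries Gene Ontology (GO) annotation, from which 6 terms were taken, and their counts are likewise to be read beside 39.5% and 38.6% of all tested genes. Of 28 tested genes under the epidermal growth factor receptor signaling pathway, which include members of the family, 16 were past 2-fold higher at each dose, with median log2 fold changes of 1.15 and 1.13. Of the 16 at each dose, 3 had under 0.5 FPKM in vehicle and passed the filter only through the rhFGF19 libraries. With the GC trend removed the medians of this term were 0.24 at both doses, and 1 gene was past 2-fold. In this term ERBIN, a scaffold that binds ERBB2, had the highest fold change (2.35, 9.16 and 7.81 FPKM). Of 19 under the ERBB2 signaling pathway, 10 were higher at each dose, led by the chaperone HSP90AA1 with 10.6, 44.4 and 42.7 FPKM, while its co-chaperone CDC37 had 111, 72.2 and 74.4 FPKM. Of these 10, 1 passed the filter only through the rhFGF19 libraries. With the GC trend removed the medians of the ERBB2 term were 0.042 and 0.050, with no gene past 2-fold. Of 26 under negative regulation of EGFR signaling, 14 were higher, and of 16 under positive regulation, 4 were. The medians of these last terms were 1.10 and -0.22 at 50 ng/mL, their median transcript GC contents 48.5% and 57.3%, and their medians with the GC trend removed 0.22 and 0.011. Of the 14 under negative regulation, 2 passed the filter only through the rhFGF19 libraries. The smaller term regulation of EGFR signaling had 2 of 8 genes higher, and EGFR binding 10 of 19 at the lower dose and 9 at the higher dose. The gene with the highest fold change was PTPN12, a tyrosine phosphatase, in the former (2.91, 8.60 and 7.77 FPKM) and EFEMP1, an extracellular matrix protein with EGF-like repeats, in the latter (1.78, 6.83 and 6.02 FPKM). With the GC trend removed, the medians of the former were 0.077 and 0.0050 and those of the latter 0.24 and 0.31. Members of the family are also listed under the ERBB2, negative regulation and EGFR binding terms (7, 6 and 5).

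By Euclidean distance over the log2(FPKM + 0.1) values of the 3 libraries, the symbols most like ERBB2 were CTBP1, SLC35A2 and CIRBP, at distances of 0.068, 0.071 and 0.090. Those most like AREG were RSKR, AL731577 and CCDC152, at 0.070, 0.13 and 0.14. With 3 libraries many genes lie this close, and the distances describe levels only.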

How the data were processed

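Poly(A) RNA of LX-2 cells was sequenced as paired-end libraries (1 per condition). Reads were aligned by the authors with HISAT2, and a table of 26108 genes in FPKM was deposited. The submitters' processing notes list HISAT2 2.0, StringTie 1.3.0 and Bowtie 0.12.2 with the builds hg19 and mm8, yet the coordinates overlapped the GRCh38 positions in GENCODE v29 for 99.9% of the 25531 identifiers found there. Which program computed FPKM, and any filter, is not given in the sources used here. No step of whole reads could be read from the low values. The study's methods describe logCPM and an absolute log2 fold change above 1, and that threshold was kept.

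Rows sharing a symbol were summed. The log2(FPKM + 0.1) values were compared between libraries where a symbol averaged 0.5 FPKM or more, and members under it are given without that filter. Fold changes on this scale understate the change of low genes. Transcript GC content and length were medians over the transcripts listed for a gene, taken from GENCODE v29 and found for 99.8% of tested symbols, and trends were fitted by loess with a span of 0.3. No p-values were computed. The members and lists were chosen with earlier results of these data known. The genes named from each list were the 2 with the highest mean FPKM and those with the highest and lowest averaged fold change, and further genes of these lists (ADAM17, ERRFI1, CBL, NRAS, SPRY4 and CCND1) were named after their values were seen. Each result was recomputed with another pseudocount, filter, scaling, threshold, choice of row or trend, of which 3 were chosen after seeing the data. Python 3.11.15, pandas 2.3.3, NumPy 2.4.6 and statsmodels 0.14.6 were used, and the procedure was tested on simulated data.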

Additional observations from a re-analysis of the deposited data

How the results depend on the processing

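Values are given for 50 and then 100 ng/mL, beside 2 and 2 members past 2-fold higher, member medians of 1.08 and 1.05, and 41 and 38 pathway genes past 2-fold higher with 0 lower. With a pseudocount of 1 these were 1 and 1 members, medians of 0.74 and 0.69, and 22 and 22 pathway genes. With a filter at a mean of 1 FPKM, which leaves out NRG1, 1 and 1 members were past 2-fold. With the median ratio set to 0, 1 and 1 members were, and 5 and 5 pathway genes were lower. After quantile normalization 0 and 0 members were, with medians of 0.52 and 0.45 and 9 and 7 pathway genes. With the GC trend removed 0 and 0 members were, with medians of 0.26 and 0.24 and 5 and 4 pathway genes. With the length trend removed 0 and 0 members were, with medians of 0.64 and 0.61, 10 and 7 pathway genes higher and 9 and 8 lower. At a threshold of 2 on the log2 scale 0 and 0 members and 1 and 0 pathway genes were past it.

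A further 3 alternatives were chosen after seeing the data. With the GC trend of the longest transcript removed, 0 and 0 members were past 2-fold, with medians of 0.21 and 0.19, 4 and 1 pathway genes higher and 1 and 1 lower. With the GC trend removed at a pseudocount of 1, 0 and 0 members were, with medians of 0.28 and 0.28 and 2 and 1 pathway genes, and NRG1 turned to -0.19 and -0.23. With the GC trend removed and no filter, EGFR was past 2-fold higher at both doses (1 and 1 members) and EREG lower at 50 ng/mL (1 member, -1.17), with medians of 0.54 and 0.41 and 9 and 5 pathway genes. The cause of these shifts was not tested. With no filter AREG, and with TPM HBEGF, was also past 2-fold, giving 3 and 3 members in each case. A pseudocount of 0.01 and the row with the highest mean per symbol left 2 and 2 members, and none of these 4 settings moved a median by more than the SD of 0.32 or the pathway counts by more than 1.5 times. No replicate could be left out with 1 library per condition. No paired analysis was possible because each group held 1 library and no test was made. Depth is unknown, so the precision of the members under 0.5 FPKM is limited by at least the second decimal.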
